A study of Homo sapiens with 19 samples.

Results

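The 10 genes described here encode the proteins that detect DNA double-strand breaks and pass the alarm to the cell cycle: NBN and RAD50, the apical kinases ATM, ATR and PRKDC, the chromatin mediators H2AFX, MDC1 and TP53BP1, and the effector kinases CHEK1 and CHEK2. They were taken by symbol from the deposited count table, where all 10 were present among 23367 genes, and all 10 were among the 14793 genes with enough reads to be tested. A double-strand break is bound by the MRE11-RAD50-NBN complex, which recruits and activates the kinase ATM, while single-stranded DNA at resected ends or stalled forks activates ATR. Both kinases, and PRKDC at ends held for direct rejoining, phosphorylate the histone variant encoded by H2AFX, and MDC1 and TP53BP1 assemble on the marked chromatin. ATM activates CHEK2 and ATR activates CHEK1, which hold the cell cycle. Much of this signalling runs through phosphorylation, which RNA counts do not measure.

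The cells were SHEP TET21N, an established human neuroblastoma line carrying a MYCN transgene that doxycycline switches off. MYCN-high cells were grown without doxycycline and MYCN-low cells with it, so the transgene's state and the presence of doxycycline cannot be told apart. In each state, untreated cells were compared with cells taken after 72 h in 0.1 µg/ml doxorubicin, a topoisomerase II poison that breaks DNA, and with cells taken 3, 8 and 14 days after the drug was washed out. There were 19 libraries in 10 groups, lettered B and C and labelled as biological duplicates; only library B stood for MYCN-low cells at 14 days. Untreated cells of matching culture time were not analysed here, so time after the drug and time in culture cannot be told apart. The labels do not tie the letters to separate cultures or days, so p-values measure only the spread between these libraries.

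Libraries held 16530112 to 27638012 counts assigned to genes. Levels are given as CPM, each gene's reads per library total after scaling for library composition, first library B and then C. MYCN itself read 675 and 690.4 CPM in untreated MYCN-high cells and 30.7 and 19.1 CPM in untreated MYCN-low cells, and over all time points the 2 states did not overlap. All 11 genes on a list of p53 targets were called higher at 72 h in both states, CDKN1A, the cell cycle inhibitor p21, reaching 1193 and 1042 CPM from 23.5 and 22.9 CPM in MYCN-high cells. Of the neuroblastoma markers, the mesenchymal genes VIM, FN1, PRRX1, SNAI2, CD44 and YAP1 were all detected, while the adrenergic markers PHOX2A, DBH and TH were at 0 in most libraries and never above 0.0975 CPM, GATA3 ranged from 0.890 to 2.75 CPM and HAND2 from 46.0 to 325 CPM. PTPRC, EPCAM, PECAM1 and CD3E, markers of other cell types, stayed at or below 2.04 CPM, and KRT8 ranged from 60.5 to 389.7 CPM. The 2 structured RNAs found in the table, RMRP and RPPH1, ranged from 1026 to 4200.2 CPM and from 789 to 2318 CPM. The MYCN-high libraries at 72 h stood apart from each other: the mean log2 CPM of 25 mitosis genes was 3.07 in B and 5.01 in C. For the 10 genes, the called changes from untreated to 72 h and from 72 h to 14 days are given with and without each. In bulk RNA, fewer cells of a type and less RNA per cell cannot be told apart. Every level is a share of the library's RNA. Scaling to the added ERCC spike-in RNA moved the median gene by -3.41 to 2.50 on the log2 scale. Changes are therefore changes in share after scaling for library composition, except where spike-in scaling is named.

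The promoter sequences of the 4 members that fell with the mitosis genes are shown because the upstream regions of many cell cycle genes carry CCAAT boxes and the CHR element TTTGAA, and those of S-phase genes E2F sites. Each is the 250 bases before the RefSeq transcription start (most upstream start where there are several), 5′ to 3′ on the gene's strand in GRCh38.p14, from RefSeq, where H2AFX is listed as H2AX; capitals mark CCAAT or TTTGAA on either strand (ATTGG and TTCAAA on the other).
CHEK1, chr11:125625974-125626223, plus strand: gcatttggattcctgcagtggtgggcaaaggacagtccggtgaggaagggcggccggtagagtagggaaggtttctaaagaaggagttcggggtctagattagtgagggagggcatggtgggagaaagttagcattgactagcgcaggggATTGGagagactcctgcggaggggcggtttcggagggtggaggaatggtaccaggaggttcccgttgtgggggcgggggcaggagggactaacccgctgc
CHEK2, chr22:28741821-28742070, minus strand: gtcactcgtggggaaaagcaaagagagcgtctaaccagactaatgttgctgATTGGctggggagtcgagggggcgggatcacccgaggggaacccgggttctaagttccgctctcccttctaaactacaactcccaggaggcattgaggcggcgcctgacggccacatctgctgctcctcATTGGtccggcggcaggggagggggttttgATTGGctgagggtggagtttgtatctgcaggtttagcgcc
H2AFX, chr11:119095466-119095715, minus strand: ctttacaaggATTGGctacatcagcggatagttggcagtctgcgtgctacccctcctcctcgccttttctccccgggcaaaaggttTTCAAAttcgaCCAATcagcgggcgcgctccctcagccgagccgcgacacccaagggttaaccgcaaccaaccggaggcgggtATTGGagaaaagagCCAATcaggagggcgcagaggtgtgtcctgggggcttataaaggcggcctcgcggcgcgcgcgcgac
MDC1, chr6:30717282-30717531, minus strand: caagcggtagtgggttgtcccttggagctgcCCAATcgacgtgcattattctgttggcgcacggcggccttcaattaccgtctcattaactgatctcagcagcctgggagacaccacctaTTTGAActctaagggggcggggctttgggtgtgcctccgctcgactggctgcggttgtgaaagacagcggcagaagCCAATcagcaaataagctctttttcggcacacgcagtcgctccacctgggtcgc
H2AFX held 4 CCAAT matches, CHEK2 held 3, MDC1 held 2 and CHEK1 held 1. Both H2AFX and MDC1 also held 1 TTTGAA match. Of the 8 members with a RefSeq promoter entry (all but NBN and PRKDC), 6 held CCAAT, which 32.0% of 35116 promoter windows of the same length also held, and 3 held TTTGAA, which 13.3% of windows held. Beyond the 4 shown, ATM held 1 CCAAT and 1 TTTGAA match and TP53BP1 held 1 CCAAT match. Neither motif was therefore particular to the 4 members shown. CHEK1 and CHEK2 held no TTTGAA in these windows. CHEK1 has 3 starts in RefSeq and ATM 2, and only the most upstream was searched. None of the 8 held an E2F motif in the spellings TTTGGCGC, TTTCCCGC, TTTCGCGC or TTTGCCGC (2.79% of windows) or the E-box CACGTG that MYC proteins bind (6.34% of windows). These letters are matches in a short window, and no binding was measured.

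After 72 h of doxorubicin the 10 genes split. CHEK1, CHEK2, H2AFX and MDC1 fell in both MYCN states and, in MYCN-high cells, rose again by 14 days after washout. NBN was called lower and then higher again in MYCN-high cells. PRKDC was called lower in MYCN-low cells and not in MYCN-high cells, without a called difference between the states in the 72 h change. ATM rose in MYCN-high cells, and ATR was not called after treatment in either state. RAD50 was called in MYCN-low cells only in fits without untreated library C. In MYCN-high cells at 72 h, 5 of the 10 genes were called lower (edgeR quasi-likelihood test, Benjamini-Hochberg adjusted p under 0.05 over all tested genes) against 17.9% of all tested genes, and 1 of 10 was called higher against 18.3%. In MYCN-low cells at 72 h, 5 of 10 were called lower against 12.1% of all genes. The median change of the 10 was -0.70 in MYCN-high cells and -0.55 in MYCN-low cells on the log2 scale, beside 0.03 and 0.01 over all tested genes. Comparisons with untreated cells share the same untreated libraries within a state. In the changes below, the value after ± approximates the standard error and was computed from the test statistic.

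**Figure D1:**
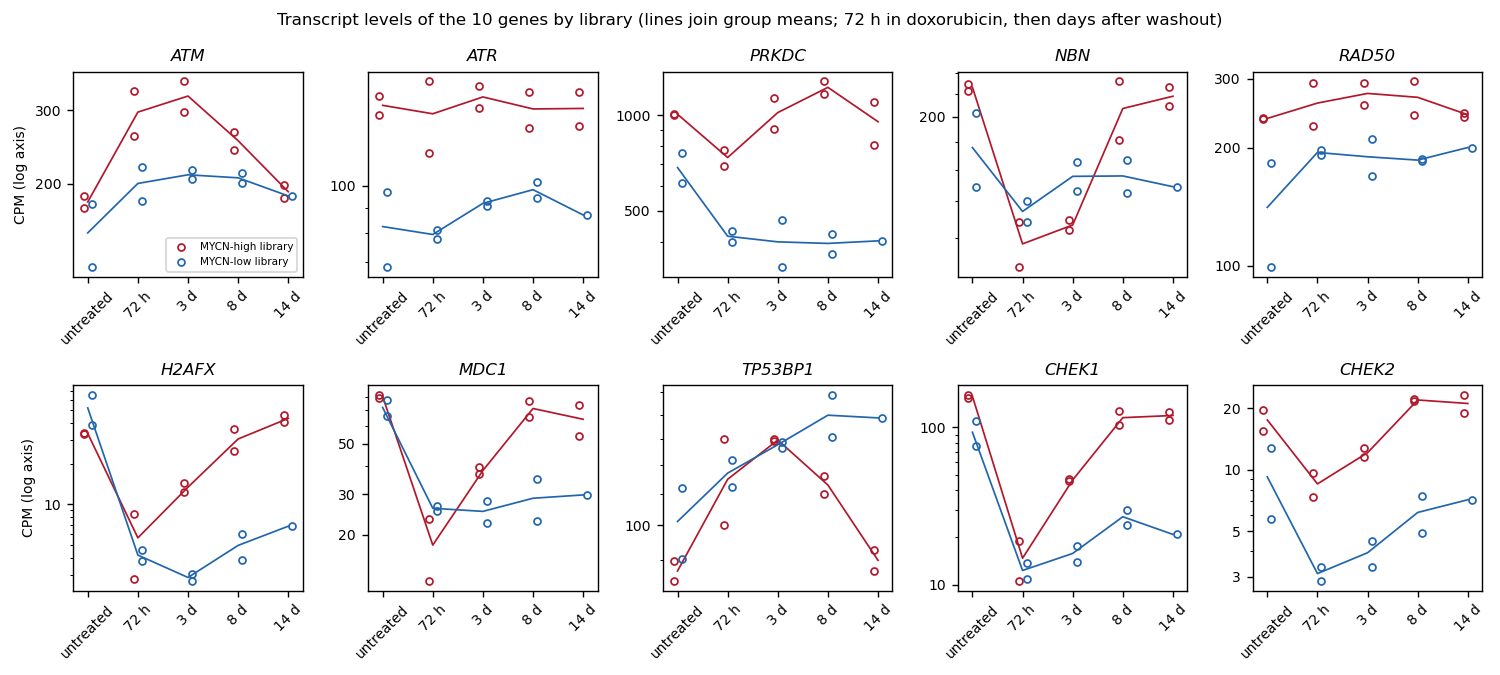
Transcript level of each of the 10 genes in every library (open circles, CPM on a log axis) by time, with lines joining group means, MYCN-high in red and MYCN-low in blue. CHEK1, CHEK2, H2AFX and MDC1 drop at 72 h in both states and climb back in the MYCN-high libraries by 14 days, while ATM and TP53BP1 do not drop.

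NBN is the subunit of the break-binding complex that docks ATM. It read 223 and 229.9 CPM in untreated MYCN-high cells, 128 and 106 CPM at 72 h, 124 and 129 CPM at 3 days, 182 and 232 CPM at 8 days and 226 and 209.6 CPM at 14 days. The 4 libraries at 72 h and 3 days lay below all others of that state. The log2 change of NBN was -0.95 ± 0.18 at 72 h (edgeR adjusted p = 0.000623) and -0.84 ± 0.18 at 3 days (edgeR adjusted p = 0.00225), and NBN rose by 0.90 ± 0.18 from 72 h to 14 days (edgeR adjusted p = 0.00104). Without library B or C of 72 h the fall was -1.09 or -0.82 and the rise 1.04 or 0.77, all called. Under spike-in scaling these 3 changes had the opposite sign, 1.54, 0.76 and -2.61. In MYCN-low cells NBN read 148 and 203 CPM untreated, 140.0 and 128 CPM at 72 h, 165 and 146 CPM at 3 days, 167 and 145 CPM at 8 days and 149 CPM at 14 days. The treated libraries lay below or within the range of the untreated pair, and neither the change at 72 h (-0.39 ± 0.18, edgeR adjusted p = 0.125) nor any later one was called. Without untreated B the 72 h change was called (-0.60, edgeR adjusted p = 0.0292), and without untreated C the later changes were 0.03 to 0.09. The change at 72 h was not shown to differ between the states (-0.56 ± 0.25, MYCN-high minus MYCN-low, edgeR adjusted p = 0.147), but was without untreated MYCN-low library C (-0.78, edgeR adjusted p = 0.0259).

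RAD50, the long coiled-coil ATPase that holds the ends, was called different from untreated cells at no time with all libraries in the fit, and in MYCN-low cells the calls turned on 1 untreated library. In MYCN-high cells it read 238 and 237 CPM untreated, 292 and 228 CPM at 72 h, 293 and 258 CPM at 3 days, 296 and 242 CPM at 8 days and 246 and 239.7 CPM at 14 days. The MYCN-low cells gave 99.0 and 183 CPM untreated, where the duplicates were far apart, 197 and 192 CPM at 72 h, 210.4 and 169 CPM at 3 days, 185 and 187 CPM at 8 days and 200.2 CPM in the single library at 14 days. The changes from untreated ranged from 0.03 to 0.21 in MYCN-high cells and from 0.40 to 0.51 in MYCN-low cells on the log2 scale, with the smallest edgeR adjusted p at 0.155. Without untreated MYCN-low library C the MYCN-low changes were 0.92 to 1.04 and RAD50 was called higher at all 4 times (edgeR adjusted p from 0.00262 to 0.00426). The difference between the states in the change from untreated was then also called at all 4 times (-0.75 to -1.01, edgeR adjusted p up to 0.0373). RAD50 and NBN, subunits of 1 complex, were also set against each other, with no test: the ratio of RAD50 to NBN reads within a library was 1.03 to 1.07 in untreated MYCN-high cells, 2.15 to 2.28 at 72 h, 2.00 to 2.36 at 3 days and 1.09 to 1.14 at 14 days. In MYCN-low cells it was 0.667 to 0.902 untreated and 1.41 to 1.50 at 72 h, so the 72 h and untreated libraries did not overlap in either state. At 8 days in MYCN-high cells, at 1.04 to 1.63, they overlapped again. The opposite-strand gene TH2LCRR overlaps an exon of RAD50 in GENCODE 29, so its reads may be included in these levels and ratios.

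ATM, the kinase activated at double-strand breaks, read 175 and 187 CPM in untreated MYCN-high cells and rose to 333 and 260.2 CPM at 72 h and 352 and 296 CPM at 3 days, before 266 and 241 CPM at 8 days and 198 and 184 CPM at 14 days. The change was 0.72 ± 0.18 at 72 h (edgeR adjusted p = 0.00616) and 0.84 ± 0.18 at 3 days (edgeR adjusted p = 0.00273), and it fell by 0.63 from 72 h to 14 days (edgeR adjusted p = 0.0131). Without C of 72 h these were 0.89 at 72 h and a change of -0.80 to 14 days. The rise at 72 h was no longer called without MYCN-high library B of 72 h (0.53, edgeR adjusted p = 0.0652), nor was the later fall without that library (-0.44, edgeR adjusted p = 0.125) or without library C of 14 days (edgeR adjusted p = 0.0849). In MYCN-low cells ATM read 126 and 179 CPM untreated, 182 and 219 CPM at 72 h, 215 and 205 CPM at 3 days, 212 and 201 CPM at 8 days and 187 CPM at 14 days. Its changes of 0.29 to 0.46 over the 4 times were not called. DESeq2's Wald test called ATM higher at 3 days (adjusted p = 0.0427) and 8 days (adjusted p = 0.0344). Without untreated MYCN-low library C it was called at 72 h (0.65, edgeR adjusted p = 0.0189), 3 days (0.72, adjusted p = 0.0107) and 8 days (0.74, adjusted p = 0.00938). An opposite-strand gene, C11orf65, overlaps exons of ATM in GENCODE 29, and reads from the pair are separated only if the counting used strand, which is not given in the sources used here.

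ATR, the kinase of stalled forks, was called different between the states at every time and never against untreated cells, although its 14-day difference between the states had the opposite sign under spike-in scaling. In MYCN-high cells it read 139.5 and 152 CPM untreated, 163 and 117 CPM at 72 h, 159 and 144 CPM at 3 days, 131 and 155 CPM at 8 days and 155 and 132 CPM at 14 days. The MYCN-low cells gave 68.2 and 97.0 CPM untreated, 81.3 and 77.9 CPM at 72 h, 93.2 and 91.0 CPM at 3 days, 102 and 94.4 CPM at 8 days and 87.2 CPM at 14 days. At every time both MYCN-high libraries lay above every MYCN-low library. The changes from untreated ranged from -0.06 to 0.25 over both states, and none was called (smallest edgeR adjusted p = 0.354). The ratio of ATM to ATR reads went from 1.23 to 1.25 in untreated MYCN-high cells to 2.04 to 2.23 at 72 h and back to 1.28 to 1.40 at 14 days. In MYCN-low cells it was 1.84 to 1.85 untreated, 2.23 to 2.80 at 72 h and 2.14 at 14 days.

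PRKDC, the catalytic subunit that binds the Ku-capped end for rejoining, was the most abundant of the 10 per exon base. It read 610.1 and 758 CPM in untreated MYCN-low cells and then 399.6 and 433 CPM at 72 h, 467 and 332 CPM at 3 days, 424 and 366 CPM at 8 days and 402 CPM at 14 days. All 7 treated MYCN-low libraries lay below both untreated ones. The change was -0.72 ± 0.20 at 72 h (edgeR adjusted p = 0.0194), -0.78 ± 0.20 at 3 days (edgeR adjusted p = 0.0122), -0.79 ± 0.20 at 8 days (edgeR adjusted p = 0.0104) and -0.76 ± 0.26 at 14 days (edgeR adjusted p = 0.0491). Each of these calls was lost without some library: without untreated C or either 72 h library at 72 h (edgeR adjusted p up to 0.114), without C of 3 days (adjusted p = 0.133), without C of 8 days (adjusted p = 0.0926) and without untreated C at 14 days (adjusted p = 0.116), where DESeq2 size factors also ended it (adjusted p = 0.0659). The 8-day change was 0.18 under spike-in scaling, the opposite sign. In MYCN-high cells PRKDC read 1011 and 1001 CPM untreated, 693 and 778 CPM at 72 h, 1132 and 904 CPM at 3 days, 1279.6 and 1164 CPM at 8 days and 1099 and 807 CPM at 14 days. No change was called there (-0.45 ± 0.20 at 72 h, edgeR adjusted p = 0.0937), although both 72 h libraries lay below both untreated ones. The 72 h change did not differ between the states by the test (0.26 ± 0.29, MYCN-high minus MYCN-low, edgeR adjusted p = 0.577).

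H2AFX, whose product is phosphorylated over broad domains around a break, fell the furthest of the 10 in MYCN-low cells. It read 65.4 and 38.9 CPM untreated and then 3.80 and 4.59 CPM at 72 h, 3.03 and 2.68 CPM at 3 days, 3.83 and 6.07 CPM at 8 days and 6.88 CPM at 14 days. All 7 treated libraries lay far below both untreated ones, and no library came back to the untreated level. The change was -3.63 ± 0.41 at 72 h (edgeR adjusted p = 9.46e-06), -4.18 ± 0.43 at 3 days (edgeR adjusted p = 3.59e-06), -3.38 ± 0.40 at 8 days (edgeR adjusted p = 3.97e-05) and -2.92 ± 0.52 at 14 days (edgeR adjusted p = 0.0017). In MYCN-high cells H2AFX read 33.9 and 33.4 CPM untreated, 2.80 and 8.47 CPM at 72 h, 14.4 and 12.5 CPM at 3 days, 25.2 and 36.1 CPM at 8 days and 41.1 and 46.0 CPM at 14 days. The libraries of 72 h and 3 days lay below the untreated ones, and those of 14 days lay above them. The change was -2.58 ± 0.39 at 72 h (edgeR adjusted p = 0.000112), -1.98 without library B of 72 h and -3.58 without C. At 3 days it was -1.32 ± 0.37 (edgeR adjusted p = 0.0137), a call lost without any 1 of its 4 libraries (edgeR adjusted p = 0.0521 to 0.0958) and of opposite sign under spike-in scaling (0.34). From 72 h to 14 days H2AFX rose by 2.96 ± 0.40 (edgeR adjusted p = 4.3e-05), by 2.36 without library B of 72 h and by 3.96 without C.

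MDC1, the scaffold that binds phosphorylated H2AFX product, read 81.9 and 79.0 CPM in untreated MYCN-high cells, 12.5 and 23.5 CPM at 72 h, 37.0 and 39.4 CPM at 3 days, 65.7 and 76.9 CPM at 8 days and 74.0 and 53.9 CPM at 14 days. In MYCN-low cells it read 77.8 and 66.3 CPM untreated, 26.7 and 25.4 CPM at 72 h, 28.0 and 22.6 CPM at 3 days, 34.9 and 22.9 CPM at 8 days and 29.8 CPM at 14 days, with no treated library above 34.9 CPM. Both MYCN-high libraries of 8 and 14 days lay above every treated MYCN-low library. It changed by -2.16 ± 0.27 at 72 h in MYCN-high cells (edgeR adjusted p = 2.16e-05; -1.77 without library B of 72 h and -2.68 without C), by -1.08 ± 0.26 at 3 days (edgeR adjusted p = 0.00581) and by 1.83 ± 0.27 from 72 h to 14 days (edgeR adjusted p = 9.7e-05). The last was 1.45 without library B of 72 h and 2.35 without C. Under spike-in scaling the 3-day change was 0.49 and the change from 72 h to 14 days -1.02, both of opposite sign. In MYCN-low cells the changes were -1.46 ± 0.26, -1.51 ± 0.27, -1.32 ± 0.26 and -1.27 ± 0.34 at the 4 times, with edgeR adjusted p of 0.000946, 0.00075, 0.00207 and 0.0168. The antisense gene MDC1-AS1 overlaps exons of MDC1, so its reads may be included.

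TP53BP1, which shields broken ends from resection and favours end joining, went the other way. It read 84.4 and 89.8 CPM untreated in MYCN-high cells, then 130.0 and 100.1 CPM at 72 h, 130.1 and 129 CPM at 3 days, 116 and 110.0 CPM at 8 days and 87.0 and 92.9 CPM at 14 days. TP53BP1 in MYCN-low cells read 90.4 and 112 CPM untreated and then 112 and 122 CPM at 72 h, 129 and 127 CPM at 3 days, 149 and 131 CPM at 8 days and 138.6 CPM at 14 days. Every treated MYCN-low library was above both untreated ones. The rise was called at 3 days in MYCN-high cells (0.57 ± 0.16, edgeR adjusted p = 0.0111) and at 8 days in MYCN-low cells (0.46 ± 0.15, edgeR adjusted p = 0.0391). The first call was lost without untreated B, 3-day B or 3-day C (edgeR adjusted p up to 0.0805). The second was lost without untreated B, 8-day B or 8-day C (up to 0.197) or without the filter on low counts (adjusted p = 0.066). Further calls came in other fits. DESeq2's Wald test called the rise at 72 h in MYCN-high cells (adjusted p = 0.0406) and at 14 days in MYCN-low cells (adjusted p = 0.036). Without C of 72 h the MYCN-high rise was 0.58 (edgeR adjusted p = 0.0181) and the change from 72 h to 14 days -0.53 (adjusted p = 0.0302). Without untreated C the MYCN-low rise was called at 3 days (0.48, edgeR adjusted p = 0.0452) and 14 days (0.64, adjusted p = 0.0252). Within a library the ratio of TP53BP1 to MDC1 reads was 1.03 to 1.14 in untreated MYCN-high cells, 4.26 to 10.4 at 72 h, 3.28 to 3.52 at 3 days and 1.18 to 1.72 at 14 days. In MYCN-low cells it went from 1.16 to 1.69 untreated to 4.20 to 4.80 at 72 h and was still 4.65 at 14 days. The gene TUBGCP4 overlaps an exon of TP53BP1 on the opposite strand.

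CHEK1, the effector kinase of the ATR branch that guards replication and entry into mitosis, gave the largest fall of the 10 in MYCN-high cells. It read 155 and 162 CPM untreated, 10.5 and 18.9 CPM at 72 h, 45.8 and 47.0 CPM at 3 days, 104 and 127 CPM at 8 days and 126 and 112 CPM at 14 days. The level was higher at 3 days than at 72 h and higher again at 8 days, and the 14-day libraries stayed below the untreated ones. The change at 72 h was -3.43 ± 0.27, 10.8-fold lower (edgeR adjusted p = 6.46e-07; -3.06 without library B of 72 h and -3.90 without C). It was -1.77 ± 0.25 at 3 days (edgeR adjusted p = 0.000129), -0.41 ± 0.24 at 14 days (edgeR adjusted p = 0.676), and the rise from 72 h to 14 days was 3.02 ± 0.26 (edgeR adjusted p = 1.37e-06), or 2.65 without library B of 72 h and 3.50 without C. In MYCN-low cells CHEK1 read 76.3 and 110.3 CPM untreated, 10.9 and 13.7 CPM at 72 h, 13.9 and 17.7 CPM at 3 days, 24.0 and 30.1 CPM at 8 days and 20.9 CPM at 14 days. No treated MYCN-low library reached the untreated range. The changes were -2.92 ± 0.27, -2.56 ± 0.26, -1.79 ± 0.25 and -2.16 ± 0.34 at the 4 times, with edgeR adjusted p of 1.03e-06, 3.59e-06, 0.000141 and 0.000651.

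CHEK2, the effector kinase of the ATM branch, was among the least abundant of the 10 per exon base. At 72 h and 3 days CHEK2 moved in the same direction as CHEK1 in both states. It read 15.4 and 19.6 CPM untreated, 7.38 and 9.66 CPM at 72 h, 12.7 and 11.5 CPM at 3 days, 21.8 and 22.1 CPM at 8 days and 18.9 and 23.3 CPM at 14 days in MYCN-high cells. The 8-day libraries were above both untreated ones. The change was -1.04 ± 0.32 at 72 h (edgeR adjusted p = 0.018), no longer called without untreated C (-0.86, edgeR adjusted p = 0.121) or without B of 72 h (-0.85, edgeR adjusted p = 0.118). Without C of 72 h it was -1.24, still called. The rise from 72 h to 14 days was 1.31 ± 0.32 (edgeR adjusted p = 0.00487), or 1.13 without library B of 72 h and 1.51 without C. The fall at 72 h and this rise had the opposite sign under spike-in scaling, 1.22 and -2.02. In MYCN-low cells CHEK2 read 5.71 and 12.7 CPM untreated, where the duplicates were far apart, 3.36 and 2.85 CPM at 72 h, 3.35 and 4.50 CPM at 3 days, 4.91 and 7.45 CPM at 8 days and 7.13 CPM at 14 days. The change was called at 72 h (-1.58 ± 0.34, edgeR adjusted p = 0.00352) and at 3 days (-1.24 ± 0.33, edgeR adjusted p = 0.0138), the second lost without untreated C (adjusted p = 0.172) or 3-day B (adjusted p = 0.118). Without untreated B it was also called at 8 days (-1.03, edgeR adjusted p = 0.0198). GENCODE 29 names 4 CHEK2 pseudogenes, so reads from near-identical copies may have been split or lost.

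The 2 effector kinases did not fall equally. There were 8.24 to 10.0 CHEK1 reads for each CHEK2 read in untreated MYCN-high libraries, 1.43 to 1.96 at 72 h, 3.60 to 4.08 at 3 days and 4.83 to 6.67 at 14 days. In MYCN-low libraries the ratio was 8.67 to 13.4 untreated and 3.25 to 4.81 at 72 h. No treated library of either state reached the untreated range, including those of 14 days in MYCN-high cells, when neither gene was called different from untreated. The ratio was chosen after the levels were seen and was not tested. A ratio of 2 genes in 1 library does not depend on the scaling of that library.

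**Figure D2:**
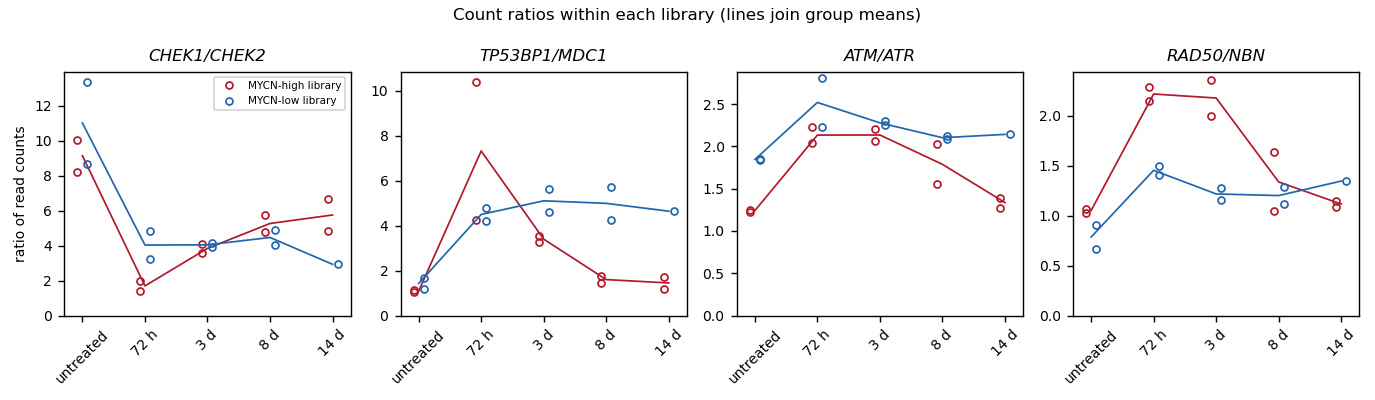
Ratio of read counts between 4 pairs of the genes within each library (circles; lines join group means; vertical axes start at 0) by time, MYCN-high in red and MYCN-low in blue. The TP53BP1 to MDC1 ratio is 1.03 to 1.14 in untreated MYCN-high cells and 4.26 to 10.4 at 72 h, and the CHEK1 to CHEK2 ratio is below its untreated range in every treated library.

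Over the recovery of MYCN-high cells the calls receded. At 3 days, 4 of 10 genes were called lower (CHEK1, H2AFX, MDC1 and NBN) against 15.7% of all genes, and 2 of 10 higher (ATM and TP53BP1) against 15.1%. At 8 days none of the 10 was called, where 8.58% of all genes were called in either direction. There, 2 of 10, ATM and TP53BP1, had an unadjusted p under 0.05, and DESeq2 called 0. At 14 days none of the 10 was called and 0.00% of all genes were; 0 of 10 had an unadjusted p under 0.05, and DESeq2 called 0. The 14-day changes of the 10 ranged from -0.41 ± 0.24 for CHEK1 to 0.37 ± 0.36 for H2AFX. From 72 h to 14 days, 5 of 10 were called higher (CHEK1, H2AFX, MDC1, CHEK2 and NBN) against 17.3% of all genes, and ATM, 1 of 10, was called lower against 18.3%.

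In MYCN-low cells the fall of CHEK1, H2AFX, MDC1 and PRKDC lasted. CHEK2 was no longer called lower at 8 days (-0.58) or 14 days (-0.38). At 3 days, 5 of 10 were called lower against 12.7% of all genes. At 8 days, 4 of 10 were called lower (CHEK1, H2AFX, MDC1 and PRKDC) against 14.6%, and 1 of 10, TP53BP1, was called higher against 10.2%. Without library C of 8 days, the count in either direction went from 5 to 3. At 14 days, 4 of 10 were called lower, again CHEK1, H2AFX, MDC1 and PRKDC, against 10.7%. That group had 1 library, whose spread was taken from the other groups.

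**Figure D3:**
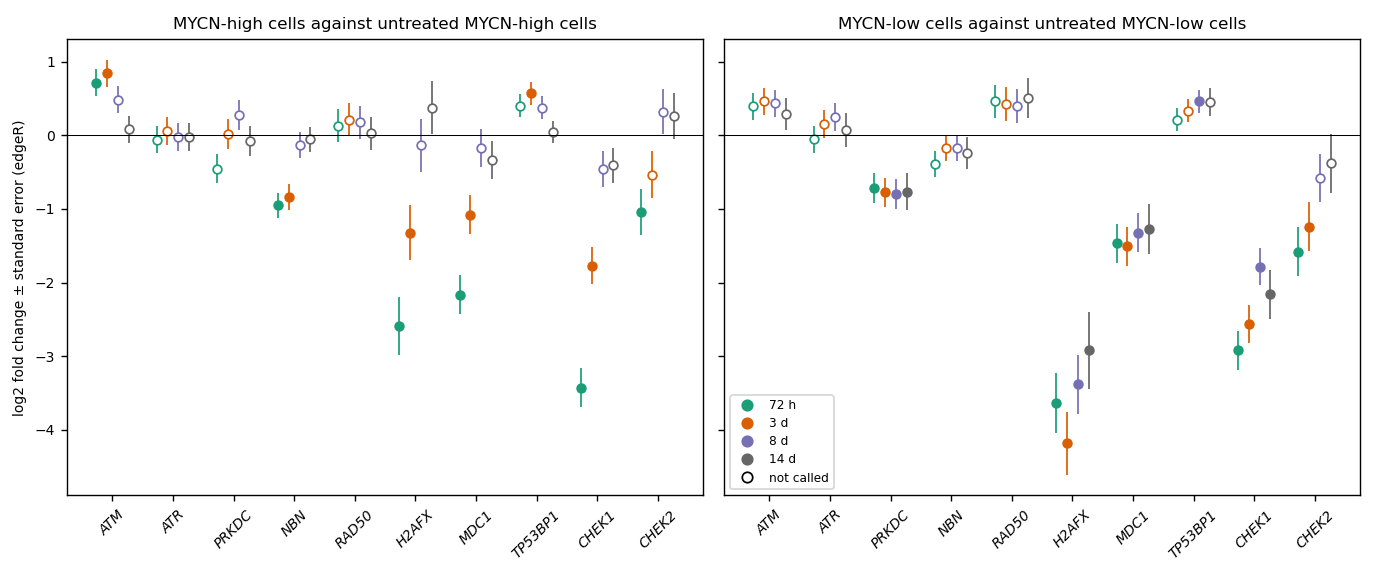
Log2 fold change against untreated cells of the same state (vertical axis, points, with an approximate standard error as bars) for the 10 genes at 4 times, MYCN-high cells on the left and MYCN-low cells on the right; filled points passed an adjusted p under 0.05. In MYCN-high cells no point is filled at 8 or 14 days, while CHEK1, H2AFX, MDC1 and PRKDC stay filled at every time in MYCN-low cells.

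The responses of the 2 states were compared directly, as the difference between their changes from untreated. At 72 h none of the 10 differed, where 10.7% of all genes were called in either direction; 1 of 10, NBN, had an unadjusted p under 0.05 and DESeq2 called 0, but 2 were called without untreated MYCN-low library C and 1 without MYCN-high library B of 72 h. At 3 days, 1 of 10, H2AFX, had fallen less in MYCN-high cells (2.86 ± 0.54, edgeR adjusted p = 0.00564), against 5.10% of all genes called in that direction. DESeq2 called 2 there, and 3 were called by edgeR without untreated MYCN-low library C. At 8 days, 3 of 10 differed against 4.41% of all genes: H2AFX (3.25 ± 0.53, edgeR adjusted p = 0.00333), CHEK1 (1.33 ± 0.35, edgeR adjusted p = 0.0348) and PRKDC (1.07 ± 0.29, edgeR adjusted p = 0.0389). H2AFX held in all 8 fits that left out a library, CHEK1 in 2 of 8 and PRKDC in 1 of 8 (and not with DESeq2 size factors, edgeR adjusted p = 0.0539), and only H2AFX was called without untreated MYCN-high B or C, 8-day MYCN-low B or C, or 8-day MYCN-high C. At 14 days, 2 of 10 differed against 4.87% of all genes, H2AFX (3.29 ± 0.62, edgeR adjusted p = 0.00708) and CHEK1 (1.75 ± 0.40, edgeR adjusted p = 0.0181), and 1 without untreated MYCN-high B or 14-day MYCN-high B. MDC1 missed the threshold at 8 days (1.15 ± 0.37, edgeR adjusted p = 0.0755), as did CHEK2 (0.90 ± 0.45, edgeR adjusted p = 0.242). The MDC1 difference was called without the filter on low counts (1.07, edgeR adjusted p = 0.00886) and without untreated MYCN-low library C (1.19, adjusted p = 0.0478), and the CHEK2 one without untreated MYCN-low library B (1.36, adjusted p = 0.0461). Missing the threshold does not show that they responded alike in both states. Mitosis genes moved in the same comparison at all 4 times. Of 25, 21 fell less in MYCN-high cells at 72 h, 25 at 3 days, 22 at 8 days and 22 at 14 days. The shares of all genes called in that direction were 6.63%, 5.10%, 4.41% and 4.87%. The part of the mitosis genes in the H2AFX and CHEK1 differences was not tested.

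**Figure D4:**
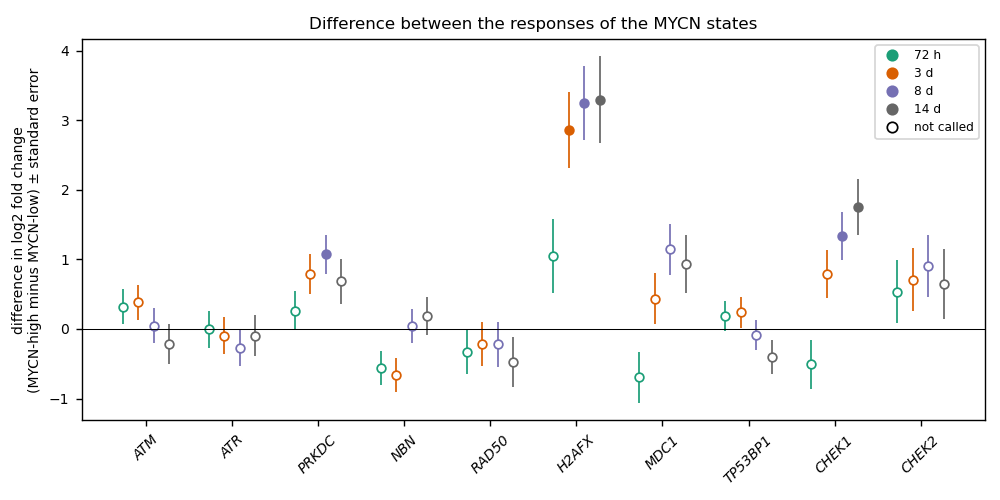
Difference between the states in the log2 change from untreated (MYCN-high minus MYCN-low; points, with an approximate standard error as bars) for the 10 genes at 4 times; filled points passed an adjusted p under 0.05. H2AFX lies at 2.86 to 3.29 from 3 days on, CHEK1 at 1.33 and 1.75 at 8 and 14 days, and all other points lie between -0.70 and 1.15.

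Levels at matched times were then compared between the MYCN states. In untreated cells, 5 of 10 were called higher in MYCN-high cells against 16.5% of all genes: ATR (0.82 ± 0.19, edgeR adjusted p = 0.00387), RAD50 (0.75 ± 0.23, adjusted p = 0.0182), CHEK1 (0.76 ± 0.24, adjusted p = 0.0244), CHEK2 (0.92 ± 0.32, adjusted p = 0.0347) and PRKDC (0.56 ± 0.20, adjusted p = 0.0433). Only ATR, 1 of 10, was called without untreated MYCN-high B, MYCN-high C or MYCN-low B. H2AFX lay the other way, with both MYCN-low libraries above both MYCN-high ones, but the difference was not called (-0.63 ± 0.36, edgeR adjusted p = 0.191; adjusted p = 0.0424 without the filter on low counts). Mesenchymal neuroblastoma markers also differed between the states. In MYCN-high cells 4 of 6 were called lower untreated and 4 of 6 at 14 days, against 18.6% and 20.5% of all genes. Of 4 tested markers of other cell types, 1 was called lower at both points, near those shares. The part of these markers in the differences of the 10 genes was not tested.

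At 72 h, 4 of 10 were called higher in MYCN-high cells against 15.5% of all genes: ATM (0.57 ± 0.18, edgeR adjusted p = 0.0276), ATR (0.82 ± 0.19, adjusted p = 0.00429), PRKDC (0.82 ± 0.20, adjusted p = 0.00651) and CHEK2 (1.45 ± 0.34, adjusted p = 0.00437). The count went to 2 without MYCN-low library B of 72 h, where ATM (edgeR adjusted p = 0.206) and PRKDC (adjusted p = 0.0623) lost their calls, and ATM (edgeR adjusted p = 0.206) and ATR (adjusted p = 0.0584) also lost theirs without MYCN-high library B, and PRKDC (adjusted p = 0.0511) without MYCN-high library C. CHEK1, H2AFX and MDC1, all at their low point in MYCN-high cells, were not called different between the states. The mitosis genes were: 25 of 25 were called higher in MYCN-high cells at 72 h (median 3.06). The same held for 25 of 25 at 3, 8 and 14 days, and for 1 of 25 in untreated cells. The part of the mitosis genes in the differences of the 10 genes between the states was not tested. H2AFX was called higher in MYCN-high cells without library B of 72 h (1.01, edgeR adjusted p = 0.0412), and MDC1 lower without library C (-1.06, adjusted p = 0.0147).

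At 3 days, 6 of 10 were called higher in MYCN-high cells against 17.0% of all genes, with H2AFX at 2.23 ± 0.41 (edgeR adjusted p = 0.000669), CHEK2 at 1.63 ± 0.33 (adjusted p = 0.00159), CHEK1 at 1.55 ± 0.25 (adjusted p = 0.000279) and PRKDC at 1.35 ± 0.21 (adjusted p = 0.000152), beside ATM and ATR. The ATM call was lost without 3-day MYCN-high B or either 3-day MYCN-low library (edgeR adjusted p up to 0.153), and the ATR call without 3-day MYCN-high B (adjusted p = 0.0784) or 3-day MYCN-low C (adjusted p = 0.0529). At 8 days, 6 of 10 were called higher against 23.4% of all genes, with H2AFX at 2.62 ± 0.39 (edgeR adjusted p = 7.9e-05), CHEK1 at 2.09 ± 0.25 (adjusted p = 1.34e-05), MDC1 at 1.31 ± 0.26 (adjusted p = 0.000902) and PRKDC at 1.63 ± 0.21 (adjusted p = 1.96e-05), beside CHEK2 and ATR. TP53BP1 was not called there (-0.31). It was called lower in MYCN-high cells with DESeq2 size factors (-0.39, edgeR adjusted p = 0.0462) and by DESeq2's Wald test (adjusted p = 0.0327). The ATR call (adjusted p = 0.0279) was lost without either 8-day MYCN-low library, without 8-day MYCN-high C (edgeR adjusted p up to 0.188) or with DESeq2 size factors (adjusted p = 0.0512).

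At 14 days, 6 of 10 were called higher in MYCN-high cells against 21.4% of all genes, and 1 of 10, TP53BP1, was called lower against 20.5%. CHEK1 (2.51 ± 0.34, edgeR adjusted p = 5.21e-05) and H2AFX (2.66 ± 0.52, adjusted p = 0.000776) stood furthest apart, and TP53BP1 was at -0.62 ± 0.19 (adjusted p = 0.0138). The calls of ATR (adjusted p = 0.133) and MDC1 (adjusted p = 0.105) were lost without 14-day MYCN-high B, and the ATR difference was -0.03 under spike-in scaling, the opposite sign. The median difference of the 10 was 0.46 in untreated cells and 0.91 at 14 days, beside -0.04 and 0.00 over all tested genes.

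Which of the genes fall with proliferation was decided by calls: lower at 72 h in both states and higher at 14 days than at 72 h in MYCN-high cells, comparisons that share their 72 h libraries. CHEK1, CHEK2, H2AFX and MDC1 met it, 4 of 10, against 6.66% of all tested genes. CHEK2 did not meet it without untreated MYCN-high library C or without B of 72 h (edgeR adjusted p = 0.121 and 0.118). NBN met both MYCN-high conditions only, PRKDC only the MYCN-low one, and ATM, ATR, RAD50 and TP53BP1 met none. MKI67, a marker of cycling cells, read 784 and 591 CPM untreated and 14.4 and 74.7 CPM at 72 h in MYCN-high cells. It read 853 and 742 CPM untreated and 2.58 and 3.33 CPM at 72 h in MYCN-low cells. On the list of 25 G2 and mitosis genes, 25 fell at 72 h in MYCN-high cells (median -3.95) and 25 in MYCN-low cells (median -6.53), and 25 rose from 72 h to 14 days in MYCN-high cells. Of 24 DNA replication genes, 24 fell in MYCN-high cells (median -3.11) and 23 in MYCN-low cells (median -3.83). The fall of CHEK1 lay between those medians in MYCN-high cells (-3.43) and was smaller than both in MYCN-low cells (-2.92). H2AFX (-2.58 in MYCN-high and -3.63 in MYCN-low cells), MDC1 and CHEK2 fell less than both medians in each state.

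**Figure D5:**
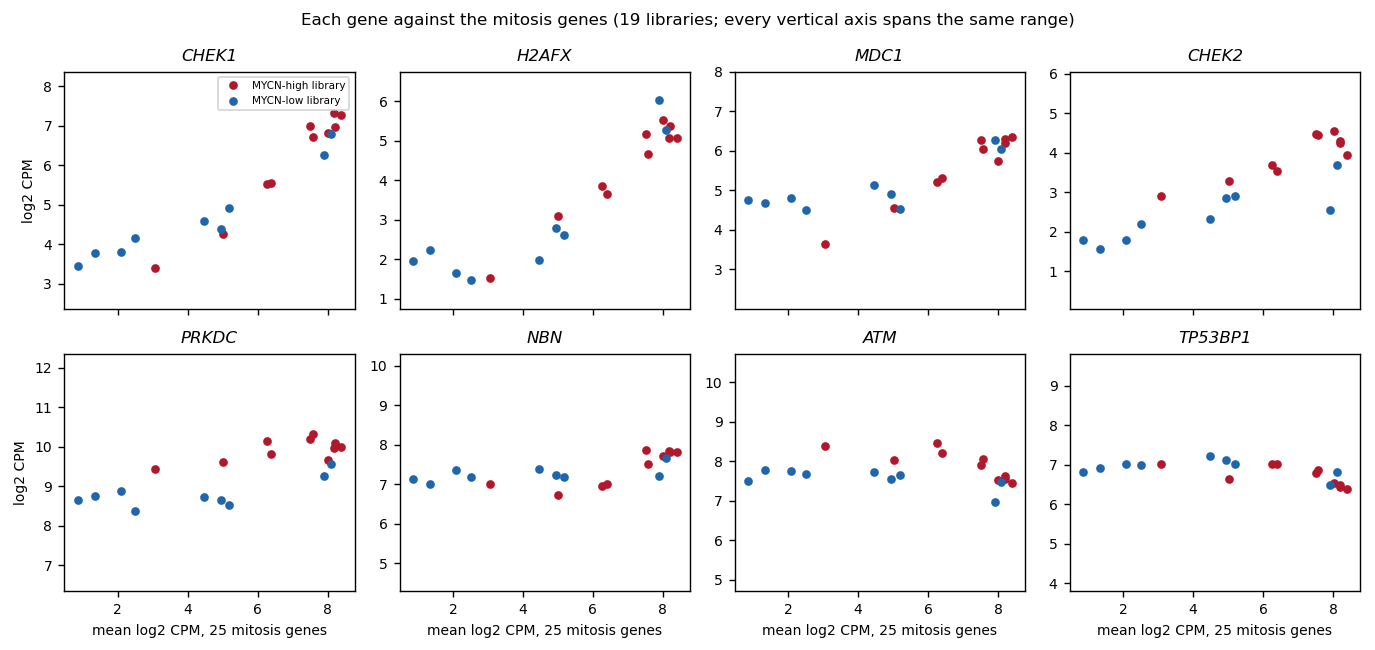
Log2 CPM of 8 of the genes (vertical axes of equal span) against the mean log2 CPM of 25 mitosis genes (horizontal axis) in 19 libraries, MYCN-high in red and MYCN-low in blue. CHEK1 and H2AFX climb with the mitosis mean, MDC1 and CHEK2 climb less, and ATM and TP53BP1 are flat or fall; the lowest horizontal value is 0.85.

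As a description over the 19 libraries, which share groups and library composition, Pearson's r with the mean of the mitosis genes was 0.946 for CHEK1, 0.924 for H2AFX, 0.873 for CHEK2, 0.837 for MDC1, 0.750 for PRKDC, 0.628 for NBN, 0.483 for ATR and 0.115 for RAD50, and negative for ATM (-0.194) and TP53BP1 (-0.599). Within the MYCN-high and the MYCN-low libraries taken apart, r was 0.984 and 0.960 for CHEK1, 0.978 and 0.870 for H2AFX, 0.895 and 0.861 for CHEK2, 0.978 and 0.815 for MDC1, 0.654 and 0.689 for PRKDC and 0.824 and 0.589 for NBN. It was -0.089 and -0.011 for ATR, -0.416 and -0.568 for RAD50, -0.768 and -0.641 for ATM and -0.664 and -0.364 for TP53BP1, so the pooled values of ATR, RAD50 and ATM differ from those within a state. The 2 libraries with the mitosis mean at its lowest were the MYCN-low ones at 72 h, 0.85 and 1.34, yet MDC1 was higher there (26.7 and 25.4 CPM) than in the MYCN-high libraries of 72 h (12.5 and 23.5 CPM), where the mitosis mean was 3.07 and 5.01. The MDC1 difference between the states at 72 h was not called (-0.54 ± 0.26, edgeR adjusted p = 0.142).

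The genes whose levels were most like each member's over the 19 libraries, by Pearson's r of log2 CPM, were named for each. For CHEK1 they were SMC2 (0.993), ATAD2 (0.992) and NCAPG2 (0.989), and for H2AFX the histone genes HIST1H2BJ (0.987) and HIST1H2AG (0.986) and the shieldin subunit MAD2L2 (0.984). For MDC1 they were MMS22L, UBR7 and RTKN2, for CHEK2 SNHG10, LSM5 and ITGB3BP, and for NBN GNB4, PRKD3 and RNASEH2B. ATR was most like WDR3, MKI67IP and MRPS25, PRKDC most like SNRNP200, NUP160 and PIH1D1, ATM most like RBM20, TAF1 and KIAA0564, RAD50 most like USP15, ZNF770 and LIPT1, and TP53BP1 most like ATP7A, MFSD6 and CHIC1, with r from 0.919 to 0.972 for these 8 members.

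Per length the order of the members differed from that of their CPM. Divided by the exon length in GENCODE 29, untreated MYCN-high levels were 74.5 ± 0.50 CPM per kilobase (SD, n = 2) for PRKDC, 46.6 ± 1.0 for NBN, 32.3 ± 1.0 for CHEK1, 28.6 ± 0.13 for RAD50, 20.8 ± 0.21 for H2AFX, 17.7 ± 1.1 for ATR, 10.4 ± 0.26 for MDC1, 9.87 ± 0.47 for ATM, 8.19 ± 0.35 for TP53BP1 and 7.62 ± 1.3 for CHEK2. MDC1 and ATM, and TP53BP1 and CHEK2, were neighbours within their spread. In untreated MYCN-low cells PRKDC again led at 50.6 ± 7.7, but H2AFX, at 32.3 ± 11.6, was next to NBN at 36.1 ± 7.9, within the spread of both.

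The rest of the pathway was read from 5 lists of 42 genes. In MYCN-high cells at 72 h, 30 of 42 were called lower against 17.9% of all genes and 3 of 42 higher against 18.3%, and 30 of 42 were called higher from 72 h to 14 days against 17.3%. Calls in either direction went from 33 to 30 without library B of 72 h and to 29 without C at 72 h, and from 32 to 29 and 30 for the change to 14 days. In MYCN-low cells, 22 of 42 were called lower at 72 h, 24 at 3 days, 22 at 8 days and 17 at 14 days, against 12.1%, 12.7%, 14.6% and 10.7% of all genes. Of 13 genes for ATR activation, 11 were lower at 72 h in MYCN-high cells (median -1.32) and 9 in MYCN-low cells, while ATR itself was not called. TIMELESS, a fork protection factor, fell by 2.98 and 3.00 in the 2 states, with edgeR adjusted p of 1.87e-07 and 9.14e-08. TOPBP1, the direct activator of ATR, fell by 1.73 and 1.55. CLSPN, the adaptor that brings CHEK1 to ATR, averaged 1.19 against 202 CPM at 72 h and untreated in MYCN-low cells.

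Of 6 genes acting with the MRE11 complex and ATM, 5 fell in MYCN-high and 4 in MYCN-low cells at 72 h, and 6 of 6 rose from 72 h to 14 days in MYCN-high cells. MRE11A, the nuclease of the complex, rose by 1.74 ± 0.23 in that interval (edgeR adjusted p = 3.38e-05), and SMC1A, a cohesin subunit that ATM phosphorylates, had fallen by 1.95 at 72 h. Of 11 genes in the chromatin ubiquitin and 53BP1 arm, 6 fell and 2 rose in MYCN-high cells at 72 h, against 17.9% and 18.3% of all genes, the second share near its background. The risers were BRE (1.01 ± 0.20) and BABAM1 (0.64 ± 0.14), both in the BRCA1-A complex; 2 fell in MYCN-low cells, near the 12.1% of all genes. Of 7 end-joining genes, 4 fell in MYCN-high and 3 in MYCN-low cells at 72 h. XRCC4 and its ligase LIG4 were called higher in MYCN-low cells at 3 days (1.18 ± 0.28 and 0.93 ± 0.28) and still at 14 days (1.36 ± 0.33 and 1.11 ± 0.33), where PRKDC was lower.

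Of the 5 targets and antagonists of the checkpoint kinases, 4 fell and 1 rose at 72 h in both states. Of all genes, 17.9% fell and 18.3% rose in MYCN-high cells, and 12.1% and 10.2% in MYCN-low cells. The 1 of 5 that rose was thus near the share of all genes in MYCN-high cells. CDC25A, the phosphatase that CHEK1 marks for destruction, averaged 12.3 against 90.8 CPM at 72 h and untreated in MYCN-high cells (log2 -2.88 ± 0.34, edgeR adjusted p = 1.14e-05). PPM1D, the p53-induced phosphatase that switches off ATM, CHEK1, CHEK2 and the H2AFX mark, also counted among the p53 targets, was the one that rose, by 1.17 ± 0.17 in MYCN-high (edgeR adjusted p = 5.93e-05) and 1.75 ± 0.17 in MYCN-low cells (edgeR adjusted p = 1.76e-06). It stood lower in MYCN-high than in MYCN-low cells at 72 h (-0.82 ± 0.16, edgeR adjusted p = 0.00146) and at 8 days (-0.67 ± 0.16, edgeR adjusted p = 0.00392), opposite to CHEK1 at 8 days.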

How the data were processed

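RNA of 19 SHEP TET21N libraries was depleted of ribosomal RNA, with ERCC spike-in RNA added, per the labels' protocols (the molecule label reads polyA RNA). The deposited table holds raw counts per gene symbol made by the authors: STAR 2.4.0h1, HTSeq and the hg19 build are named in the submitters' processing notes, and the strand setting and annotation are not given in the sources used here. Of 23459 rows, 92 ERCC rows were set aside. Genes passing filterByExpr were fitted with edgeR 4.0.16 (TMM, quasi-likelihood test, 1 coefficient per group, all 10 groups, 9 residual degrees of freedom, biological coefficient of variation 0.204) in R 4.3.3, in 18 comparisons, each adjusted by the Benjamini-Hochberg method over 14793 genes, called at 0.05. Log2 CPM used a prior count of 2. The procedure was tested on simulated data.

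Named were the 10 members, MYCN, CDKN1A, MDM2, MKI67, TOP2A and CCNB1 as checks, up to 5 called pathway genes per direction and comparison with the smallest p and separated libraries, and the 3 genes most like each member. Members, lists and rules were chosen with earlier results of these data known; the ratios, per-length levels and promoter motifs were added after the levels were seen. Alternatives were DESeq2 1.42.0 size factors or its Wald test, no filter, a replicate block, spike-in scaling and leaving out each library. Promoters are from RefSeq on GRCh38.p14, and exon lengths and overlaps from GENCODE 29, another build than the counts'. Figures were drawn with matplotlib 3.10.9. Some cell type markers on the lists are not reported here.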

Additional observations from a re-analysis of the deposited data

Results flagged for a closer look

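The changes from untreated cells differed between the MYCN states for 3 of the 10 genes, by edgeR's test of the difference itself (MYCN-high minus MYCN-low, log2). At 3, 8 and 14 days 1, 3 and 2 of the 10 were called, against 5.10%, 4.41% and 4.87% of all genes in that direction. For H2AFX the difference was 2.86 at 3 days, 3.25 at 8 days and 3.29 at 14 days, with edgeR adjusted p of 0.00564, 0.00333 and 0.00708. For CHEK1 it was 1.33 at 8 days and 1.75 at 14 days (edgeR adjusted p = 0.0348 and 0.0181), and for PRKDC it was 1.07 at 8 days (edgeR adjusted p = 0.0389). The 8-day calls of CHEK1 and PRKDC were lost in most fits that left out a library. The PRKDC call was also lost with DESeq2 size factors (edgeR adjusted p = 0.0539). The 14-day values rest on 1 MYCN-low library, and the comparisons share the untreated libraries. Groups of 1 or 2 libraries were too small to test for a library far from the others.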

How the results depend on the processing

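Of 71 called changes of the 10 genes, 45 were called in every fit that left out a library and 67 under all 4 of DESeq2 size factors, DESeq2's Wald test, no filter and the replicate block. Scaling to the ERCC spike-in, which made up 0.0116% to 0.537% of reads, left 0 of 10 called in every comparison except 14 days against 72 h in MYCN-high cells (2). The cause was not tested. Some duplicates differed widely in spike-in share: it was 0.0116% in B and 0.191% in C of MYCN-high cells at 72 h. In MYCN-low cells at 8 days it was 0.0890% and 0.0961%. The scaling reversed 10 called changes: ATR between the states at 14 days (-0.034), NBN (1.54) and CHEK2 (1.22) at 72 h, NBN (0.76), H2AFX (0.34) and MDC1 (0.49) at 3 days, NBN (-2.61), MDC1 (-1.02) and CHEK2 (-2.02) from 72 h to 14 days, all in MYCN-high cells, and PRKDC at 8 days in MYCN-low cells (0.18). None of these reversed values was called. Relative to the median gene under that scaling, all 71 kept their sign. Spike-in scaling shifts the genes of a comparison largely together, so this agreement is no independent check.

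Leaving out a library gave 1 to 7 called genes between the states untreated, 2 to 4 at 72 h, 3 to 7 in MYCN-low cells at 8 days, and, for the difference between responses, 0 to 2 at 72 h, 1 to 3 at 3 days, 1 to 4 at 8 days and 1 to 3 at 14 days. Without the filter, 1 gene was called for the difference at 72 h, and DESeq2's Wald test called 2 at 3 days. The labels do not say what the replicate letters share, and the pairing was not taken as given: the C minus B differences of 36 pairs of groups correlated from -0.208 to 0.315, above 0.1 in 22. All 9 groups correlated above 0 on average with the others, a hint from the data that the letters may share something. With the letter as a block, the counts of called members were unchanged in all 18 comparisons (5 between untreated states, for example), and 5 pathway genes differing at 8 days became 8. Depth may limit CHEK2 and H2AFX most, which read 2.68 to 7.45 CPM in treated MYCN-low libraries, but this was not tested. In fits that left 1 library in a group, its spread was taken from the other groups.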
